A study of Mus musculus with 6 samples.

Results

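The genes described here are the Wnt signals of mouse skin and the proteins that carry, receive and block them: 19 Wnt ligands, 9 Frizzled receptors with the co-receptors Lrp5 and Lrp6, 9 secreted inhibitors, and the intracellular or processing genes Ctnnb1, Axin2, Nkd1 and Porcn. They were chosen by gene symbol, and the 43 genes were measured by 1 probe set each, of 16331 probe sets in all. Every Wnt, Sfrp and Dkk gene named by number in the RefSeq gene table had a probe set, and Fzd8 is not analysed here. Affymetrix arrays of total skin RNA compared 3 wild type samples with 3 samples labelled as a Hoxc13 knockout carrying the Hoxc13tm1Mrc allele. Hoxc13 encodes a homeodomain protein that hair follicles need to build a normal shaft. All 6 samples are labelled C57BL/6, male and skin, with 5 dpn in their titles, and no treatment is given. Whether the mutants carried 1 or both targeted copies is not stated in the labels. The comparison asks which transcripts of whole skin differ when Hoxc13 is altered, and its p-values cover no more than the scatter among these 6 samples. Samples are named by group and replicate number, and every level is a log2 value of a probe set, so that a difference of 1 stands for a 2-fold change.

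Wnt proteins are secreted glycoproteins that must be acylated by Porcn, an enzyme of the endoplasmic reticulum, before they can leave the cell and bind. In the canonical branch a Wnt joins a Frizzled receptor to Lrp5 or Lrp6, beta-catenin (Ctnnb1) escapes degradation, and it activates genes with Tcf and Lef factors, among them the feedback inhibitors Axin2 and Nkd1. Sfrp proteins and Wif1 bind Wnts outside the cell, and most Dkk proteins block the Lrp co-receptors. In skin this pathway starts hair placodes in the embryo, and later acts in the hair matrix, where cells become hair shaft, and in the dermal papilla below it.

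The labelled tissue and the arrays were checked first. Of 10 measured keratinocyte markers all lay above background, and the list mean stayed between 11.74 and 11.90 on every array, with 1 gene called lower. The hair shaft and matrix list, by contrast, had means of 11.21 to 11.50 in wild type and 5.89 to 6.28 in mutant skin, with 10 of 11 measured genes called lower. The Hoxc13 probe set itself read 9.63, 9.81 and 9.83 on the wild type arrays and 8.95, 8.75 and 9.74 on the mutant arrays, a difference of -0.61 (limma adjusted p = 0.293) that was -0.90 without mutant replicate 3 (adjusted p = 0.00114). Where its probes lie relative to the targeted part is not known here, so this level does not test the genotype. Mutant replicate 3 stood apart: it correlated at 0.989 and 0.990 with the other mutants, which correlated at 0.997 with each other, so values without it are given beside calls and directions that depend on it. Xist read 11.15 to 11.67 and the 6 Y-linked probe sets 2.98 to 4.89 on every array, which goes against the label male for both groups alike.

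Without detection calls, background was gauged by 60 olfactory and vomeronasal receptor genes, which skin is not known to use widely. Their 95th percentile was 5.58. In wild type skin 32 of 43 genes (74.4%) lay above this gauge, as did 74.0% of all probe sets. Levels of different probe sets depend on their probes, so the genes are not ranked against each other.

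**Figure D1:**
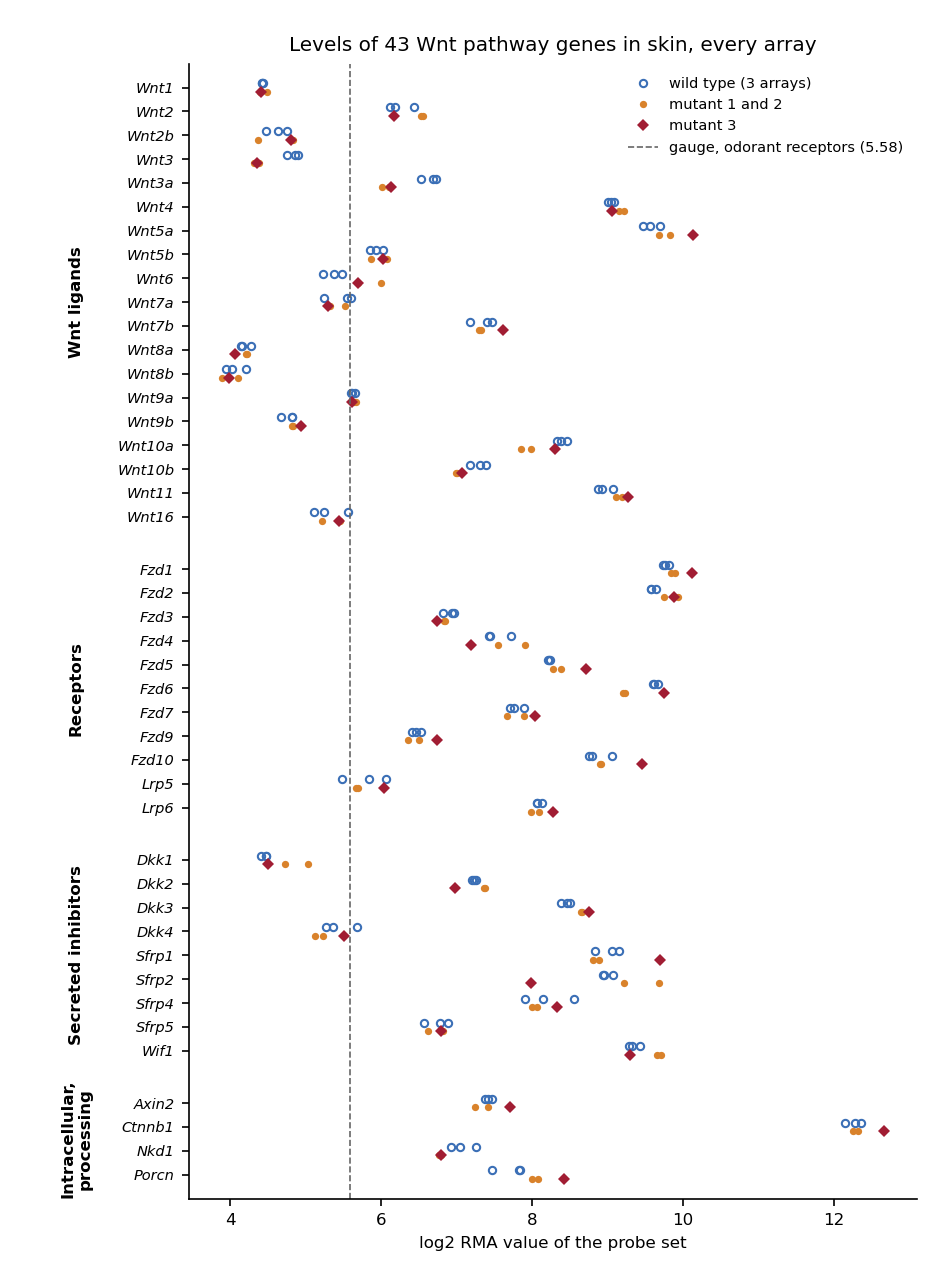
Each row is 1 of the 43 genes and the horizontal axis is the log2 RMA value of its probe set, with open circles for the 3 wild type arrays, filled circles for mutant replicates 1 and 2, and diamonds for mutant replicate 3. The dashed line is the background gauge at 5.58: all 11 receptor genes had wild type means above it, whereas 9 of 19 ligands did not.

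Among the ligands, 10 of 19 lay above the gauge in wild type skin. These were Wnt2, Wnt3a, Wnt4, Wnt5a, Wnt5b, Wnt7b, Wnt9a, Wnt10a, Wnt10b and Wnt11. Wnt9a, at 5.62, was barely above it. The ligands Wnt1, Wnt2b, Wnt3, Wnt7a, Wnt8a, Wnt8b, Wnt9b and Wnt16 were not above it in either group, and Wnt6 was above it in its mutant mean only. All 9 Frizzled genes and both Lrp genes were above the gauge. So were all 4 Sfrp genes, Wif1, Dkk2 and Dkk3, but not Dkk1 or Dkk4. The wild type arrays agreed closely for most genes, with an SD from 0.0021 (Wnt1) to 0.33 (Sfrp4).

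The ligand genes Wnt3a and Wnt3 were the only members that passed the test with all 6 arrays, and both fell in mutant skin. Both encode canonical ligands, which act through beta-catenin. The limma test with Benjamini-Hochberg adjustment over all 16331 probe sets therefore called 2 of 43 members (4.65%), against 2.08% of all probe sets (1.60% lower and 0.478% higher). Mutant and wild type values were fully separate for 13 of 43 members (30.2%), 8 higher and 5 lower, against 20.3% of all probe sets (12.5% higher and 7.82% lower). At an unadjusted p under 0.05 there were 12 members (27.9%), 7 higher and 5 lower, against 14.4% of all probe sets. The median difference of the members was 0.046, near the 0.0247 of all probe sets. In whole skin, fewer cells of a type and less RNA per cell cannot be told apart.

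The promoters of the called ligands are shown because both genes fell together. They are RefSeq windows of GRCm38.p6 from 250 bases before to 50 bases after the transcription start, 5′ to 3′ on the gene's strand, with matches to a Tcf/Lef core (CTTTG followed by AA, AT, TA or TT, on either strand) in capitals. Wnt3 lies on the plus strand at chr11:103773925-103774224 and Wnt3a on the minus strand at chr11:59290702-59291001.
Wnt3: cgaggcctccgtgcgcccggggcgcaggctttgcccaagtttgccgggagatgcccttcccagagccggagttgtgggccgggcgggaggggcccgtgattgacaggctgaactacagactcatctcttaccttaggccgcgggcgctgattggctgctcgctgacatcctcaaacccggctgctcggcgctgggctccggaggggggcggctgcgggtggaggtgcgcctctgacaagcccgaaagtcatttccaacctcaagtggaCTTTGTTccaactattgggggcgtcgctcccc
Wnt3a: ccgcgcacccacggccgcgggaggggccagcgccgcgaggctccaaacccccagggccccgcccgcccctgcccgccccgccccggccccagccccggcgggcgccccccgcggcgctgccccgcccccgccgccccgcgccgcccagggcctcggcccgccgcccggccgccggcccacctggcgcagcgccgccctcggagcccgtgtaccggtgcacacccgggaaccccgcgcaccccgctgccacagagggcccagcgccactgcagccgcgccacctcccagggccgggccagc
The Wnt3 window held 1 match, starting at base 19 of the transcript, and the Wnt3a window, with 86.3% G and C, held 0. Of 29 members with a promoter in the table, 5 had such a match (Dkk1, Fzd7, Wnt11, Wnt3 and Wnt5b). Counted by promoter this was 15.2% of 33 member promoters, against 16.9% of all 32851. Letters known from posterior Hox sites (CAATAAA or CGTAAA, either strand) were found in 1 member promoter, that of Wnt2 (3.03%, against 7.49% of all). The letters TATAAA, on either strand and anywhere in the window, were found in 18.2% of member promoters and 13.6% of all. A match is a description of letters, not a bound site.

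Wnt3a read 6.72, 6.52 and 6.69 in wild type replicates 1 to 3, and 6.11, 6.01 and 6.13 in mutant replicates 1 to 3. All 3 mutant values lay below all wild type values, and mutant replicate 3 did not differ from the others in this gene. The difference was -0.56 (SE 0.081, limma adjusted p = 0.0158), or 1.48-fold lower, with both groups above the gauge. Leaving out wild type replicate 1 or 3, or mutant replicate 1 or 2, ended the call, with differences from -0.62 to -0.52 over the 6 such fits and an adjusted p of at most 0.0948. Wnt3 read 4.86, 4.90 and 4.75 in wild type and 4.32, 4.38 and 4.35 in mutant skin. The difference was -0.48 (SE 0.071, limma adjusted p = 0.0166), again with no overlap and a narrow mutant group (SD 0.030). Both groups of Wnt3 lay below the gauge, so this is a difference of RMA values near background. Leaving out wild type replicate 1 or 2, or mutant replicate 1 or 2, ended its call (-0.53 to -0.45, adjusted p at most 0.097), and it was not among the 32 members left once low probe sets were removed. The hair shaft list moved in the same arrays, and its part in these differences was not tested.

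**Figure D2:**
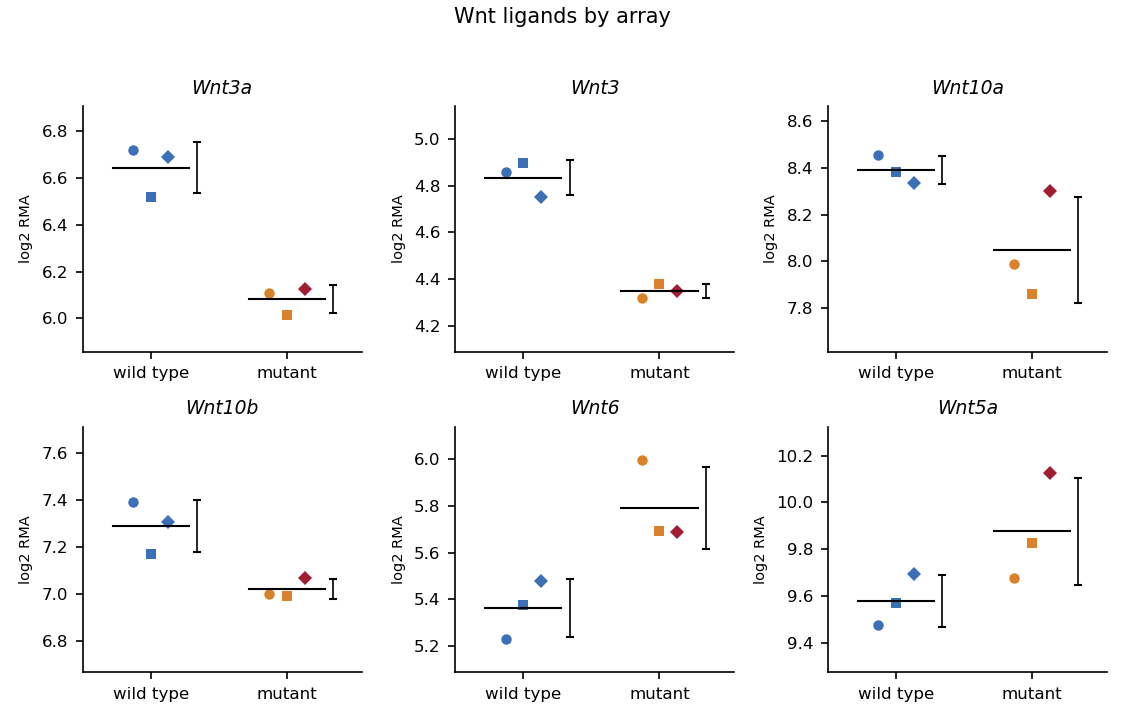
Each panel plots 1 Wnt ligand gene by group, with the log2 RMA value on the vertical axis, circles, squares and diamonds for replicates 1, 2 and 3, a line at the group mean and a bar of 1 SD (n = 3). Mutant values of Wnt3a, Wnt3, Wnt10a and Wnt10b lay below all wild type values, those of Wnt6 lay above them, and in Wnt10a mutant replicate 3 (8.30) came close to the lowest wild type value (8.34).

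The follicle ligands Wnt10a and Wnt10b, both known from hair placodes, were lower in every mutant array without passing the test. Wnt10a read 8.46, 8.38 and 8.34 in wild type and 7.99, 7.86 and 8.30 in mutant skin. The groups did not overlap, but mutant replicate 3 lay only just below the wild type range. The difference was -0.34 (SE 0.12, limma adjusted p = 0.233), and without mutant replicate 3 it was -0.47 (adjusted p = 0.00809). Wnt10b read 7.39, 7.17 and 7.31 in wild type and 7.0, 6.99 and 7.07 in mutant skin, and here all mutant arrays lay together. Its difference of -0.27 (SE 0.080, limma adjusted p = 0.176) was -0.30 without mutant replicate 3 (adjusted p = 0.0532).

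Other ligands had higher values in mutant skin, none past the threshold with all arrays. Wnt6, an ectodermal ligand, read 5.23, 5.38 and 5.48 in wild type and 5.99, 5.69 and 5.69 in mutant skin. Every mutant value was higher, and the group means lay on either side of the gauge. The difference was 0.43 (SE 0.11, limma adjusted p = 0.121), and without mutant replicate 3 it was 0.48 (adjusted p = 0.029). Wnt5a, a mostly non-canonical ligand made in the dermis and the dermal papilla, read 9.47, 9.57 and 9.69 in wild type and 9.68, 9.83 and 10.13 in mutant skin. The groups overlapped slightly, and mutant replicate 3 was the highest array. The difference was 0.30 (SE 0.12, limma adjusted p = 0.333), with a 95% interval from 0.0095 to 0.59 before adjustment, and without mutant replicate 3 it was 0.17 (adjusted p = 0.239). Wnt11, another non-canonical ligand, read 8.87, 9.07 and 8.92 in wild type and 9.19, 9.11 and 9.28 in mutant skin, a difference of 0.24 (adjusted p = 0.244) with no overlap.

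The other 12 ligands had overlapping groups and differences between -0.082 (Wnt7a) and 0.17 (Wnt2). Wnt4, an epidermal ligand, had means of 9.05 ± 0.040 and 9.14 ± 0.075 in wild type and mutant arrays (SD, n = 3 each). Wnt7b, which signals in epithelia, was at 7.35 ± 0.15 and 7.41 ± 0.17. The interval of its difference was -0.21 to 0.33, so these arrays do not show that it stayed the same. Wnt5b and Wnt9a differed by 0.047 and 0.017. Among the ligands not above the gauge, Wnt1, Wnt2b, Wnt8a, Wnt8b, Wnt9b and Wnt16 differed by 0.0057, 0.046, -0.029, -0.067, 0.092 and 0.064. In the ligand class as a whole, 12 differences were above and 7 below 0, with a median of 0.046.

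No receptor gene passed the test with all arrays (limma, 0 of 11 at an adjusted p and 1, Fzd2, at an unadjusted p under 0.05). Over all probe sets the shares were 2.08% and 14.4%. The mean was higher in mutant skin for 9 of 11 (81.8%, against 57.6% of all probe sets), with a median difference of 0.059. Without mutant replicate 3 it was higher for 5 of 11 (45.5%, against 53.8%), and the median turned to -0.014. Fzd2 read 9.58, 9.64 and 9.58 in wild type and 9.93, 9.75 and 9.88 in mutant skin, with no overlap. Its difference was 0.25 (SE 0.075, limma adjusted p = 0.183), and it was nearly the same without mutant replicate 3, at 0.24. Fzd1 (0.18) and Fzd5 (0.24) also had no overlap, but mutant replicate 3 was their highest array, and without it they were at 0.098 and 0.11.

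Fzd6, the receptor gene whose loss gives mice disordered hair whorls, split the mutant arrays. It read 9.62, 9.67 and 9.61 in wild type, 9.23 and 9.21 in mutant replicates 1 and 2, and 9.74 in mutant replicate 3. Mutant replicates 1 and 2 lay below every wild type array and mutant replicate 3 above every one. The difference was -0.24 (SE 0.14, limma adjusted p = 0.487) over all arrays and -0.41 (adjusted p = 0.00763) without mutant replicate 3. The call therefore rests on leaving that array out. Fzd10 had its highest value of either group in the same array (9.46, against 8.76 to 9.06 in wild type), with a difference of 0.22 that was 0.031 without it. Fzd4 had its lowest there (7.19, against 7.43 to 7.73), with a difference of 0.013 that was 0.19 without it. Fzd3, Fzd7 and Fzd9 differed by -0.10, 0.072 and 0.059.

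The co-receptors showed no difference beyond their spread. Lrp6 read 8.07, 8.14 and 8.07 in wild type and 8.09, 7.98 and 8.28 in mutant skin. Its difference was 0.023 with a 95% interval from -0.19 to 0.23. Lrp5 read 5.48, 6.07 and 5.84 in wild type and 5.67, 5.69 and 6.04 in mutant skin, close to the gauge and with wide scatter in both groups. Its difference was 0.0053 with an interval from -0.38 to 0.39, so a change of moderate size in Lrp5 was not detectable with these arrays.

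**Figure D3:**
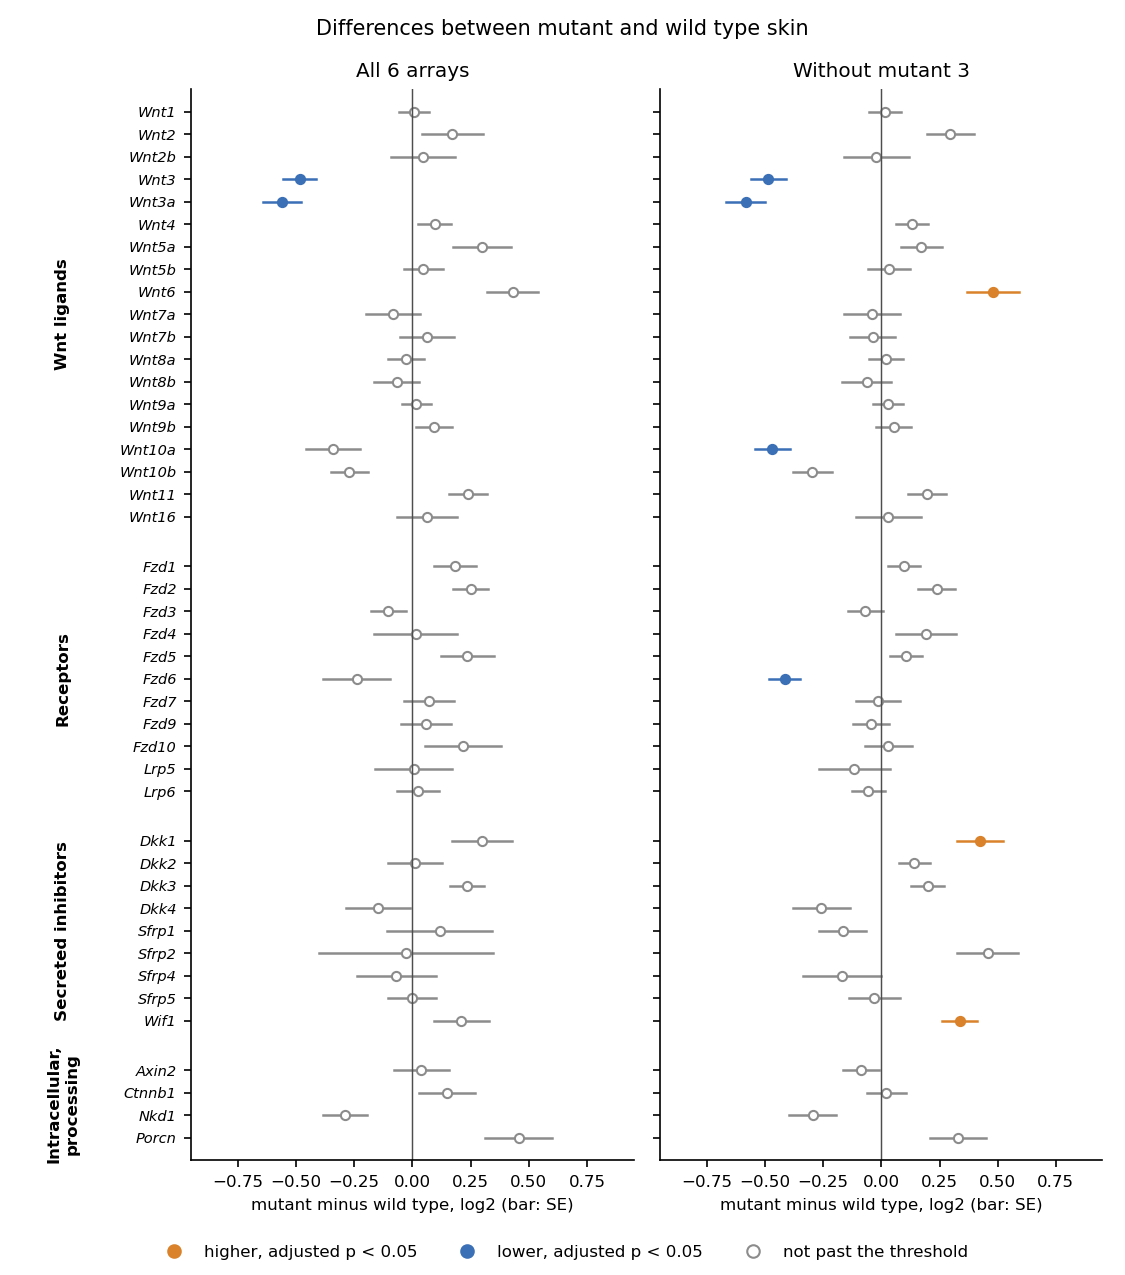
Points give the log2 difference, mutant minus wild type, of each of the 43 genes and bars its SE, with all 6 arrays on the left and without mutant replicate 3 on the right, and filled points mark an adjusted p under 0.05 by limma. Wnt3 and Wnt3a were called lower in both fits, while Wnt10a, Fzd6, Wnt6, Dkk1 and Wif1 were called only in the fit that leaves out mutant replicate 3.

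Secreted inhibitors gave no call with all arrays (limma, 0 of 9 at an adjusted p and 2, Dkk1 and Dkk3, at an unadjusted p under 0.05). Over all probe sets these shares were 2.08% and 14.4%. The median difference of the inhibitors was 0.011, and 0.14 without mutant replicate 3. Dkk3, a divergent member of the Dickkopf family, read 8.38, 8.47 and 8.51 in wild type and 8.65, 8.66 and 8.76 in mutant skin. All mutant values were higher, and mutant replicate 3 went with the others. The difference was 0.24 (SE 0.072, limma adjusted p = 0.193). Dkk1, an inhibitor of the Lrp co-receptors, read 4.47, 4.47 and 4.41 in wild type and 5.03, 4.72 and 4.50 in mutant skin. Its groups did not overlap, but all values were below the gauge. The difference was 0.30 (adjusted p = 0.347), and without mutant replicate 3 it was 0.42 (adjusted p = 0.0286). Dkk2 differed by 0.011, and Dkk4, known from placodes, by -0.15. Without mutant replicate 3 they were at 0.14 and -0.26 (adjusted p = 0.195 and 0.209).

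Several inhibitors split the mutant arrays, among them Wif1, Sfrp2 and Sfrp1. Wif1 read 9.29, 9.32 and 9.44 in wild type, 9.66 and 9.71 in mutant replicates 1 and 2, and 9.30 in mutant replicate 3, which lay inside the wild type range. Its difference was 0.21 (limma adjusted p = 0.459), and without mutant replicate 3 it was 0.34 (adjusted p = 0.025). Sfrp2, a Wnt-binding protein made by fibroblasts, read 8.96, 8.94 and 9.07 in wild type, 9.21 and 9.68 in mutant replicates 1 and 2, and 7.99 in mutant replicate 3. The last value lay below all others, a difference of -1.46 from the mean of the other mutants, the widest such gap of any member. Its difference was -0.029 with an interval from -0.90 to 0.84, and without mutant replicate 3 it was 0.46 (adjusted p = 0.0579). Sfrp1 went the other way. It read 8.84, 9.16 and 9.06 in wild type, 8.81 and 8.89 in mutant replicates 1 and 2, and 9.70 in mutant replicate 3. Its difference was 0.12 (adjusted p = 0.862), and it turned to -0.17 (adjusted p = 0.319) without mutant replicate 3. Sfrp4 and Sfrp5 differed by -0.069 and -0.0023.

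**Figure D4:**
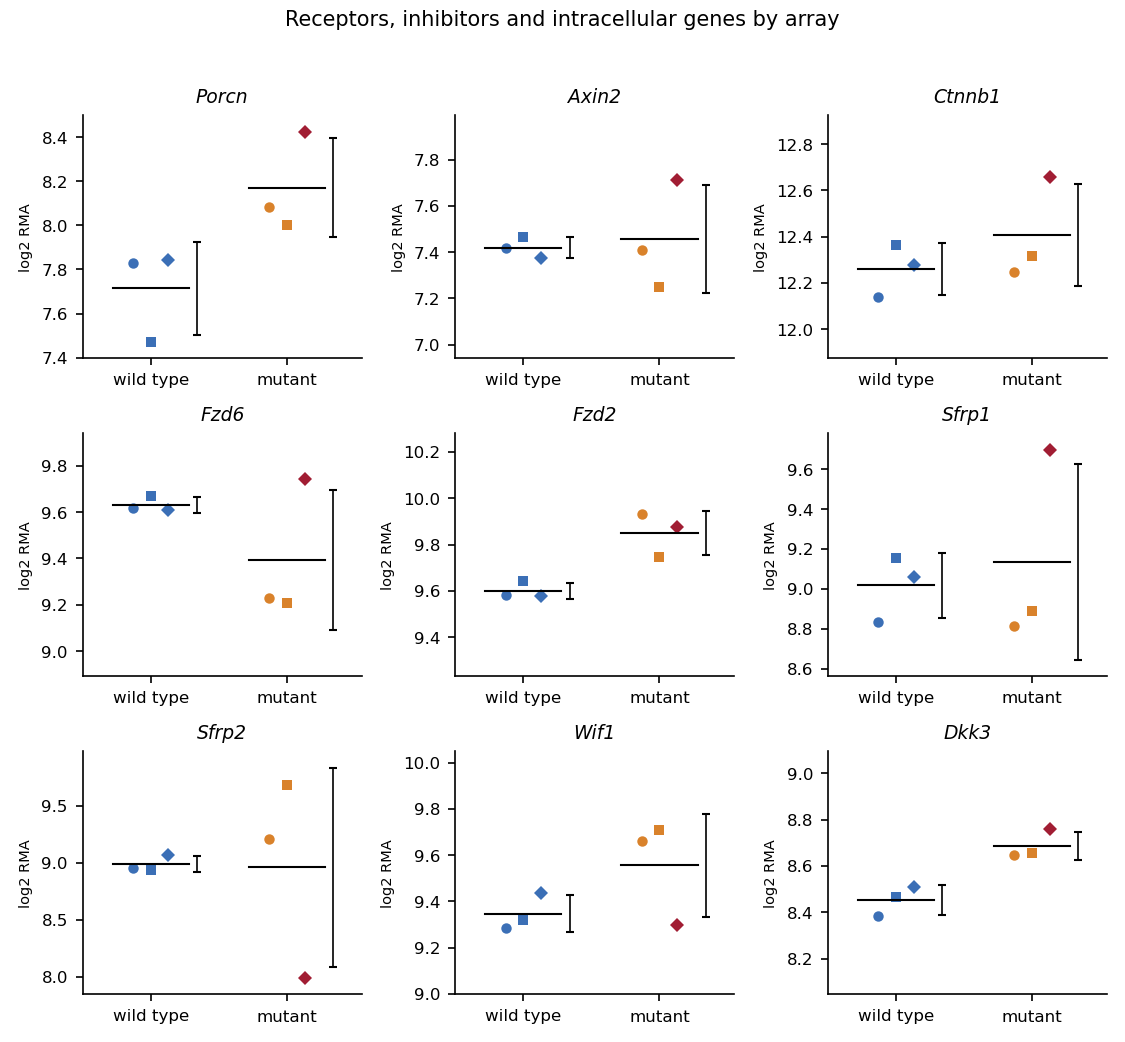
Each panel plots 1 gene by group, with the log2 RMA value on the vertical axis, circles, squares and diamonds for replicates 1, 2 and 3, a line at the group mean and a bar of 1 SD (n = 3). Mutant replicate 3 was the highest mutant array for Porcn, Axin2, Ctnnb1, Fzd6, Sfrp1 and Dkk3 and the lowest for Sfrp2 (7.99) and Wif1 (9.30).

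Of the genes inside the cell, none passed the test with all arrays (limma, 0 of 4 at an adjusted p and 2, Porcn and Nkd1, at an unadjusted p under 0.05). The shares over all probe sets were 2.08% and 14.4%. Porcn, the acyltransferase that Wnt proteins need for secretion, read 7.83, 7.47 and 7.84 in wild type and 8.08, 8.003 and 8.43 in mutant skin. Every mutant value was higher. The difference of 0.46 (SE 0.14, limma adjusted p = 0.202) was the highest of all members, and it was 0.33 (adjusted p = 0.109) without mutant replicate 3. Nkd1, a feedback inhibitor that acts on Dishevelled, read 7.25, 6.92 and 7.05 in wild type and 6.76, 6.79 and 6.79 in mutant skin, with no overlap. Its difference was -0.29 (SE 0.094, limma adjusted p = 0.214), and it was -0.30 (adjusted p = 0.0968) without mutant replicate 3.

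Axin2, the negative feedback gene most used as a readout of the canonical pathway, did not differ beyond its spread. It read 7.42, 7.46 and 7.37 in wild type and 7.41, 7.25 and 7.71 in mutant skin, with mutant replicate 3 above and mutant replicate 2 below every wild type value. The difference was 0.038 (adjusted p = 0.922), with a 95% interval from -0.24 to 0.31, and it turned to -0.088 (adjusted p = 0.489) without mutant replicate 3. Ctnnb1 read 12.14, 12.36 and 12.28 in wild type and 12.25, 12.32 and 12.66 in mutant skin. Its difference of 0.15 had an interval from -0.13 to 0.43 and came mostly from mutant replicate 3, since it was 0.022 without it.

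Without mutant replicate 3 the limma test called 7 of 43 (16.3%), 3 higher and 4 lower, against 14.2% of all probe sets (7.95% higher and 6.23% lower), a share near the background. These were Dkk1, Wif1 and Wnt6, which were higher, and Fzd6, Wnt10a, Wnt3 and Wnt3a, which were lower. Mutant replicates 1 and 2 both lay outside the wild type range, on 1 side, for 20 of 43 members (46.5%, against 47.6% of all probe sets). Mutant replicate 3 was on the same side for 13 of these 20 (65%), against 42.6% of all probe sets for which the other mutants lay outside. It lay within the wild type range for Wnt2, Wnt4, Dkk4 and Wif1, and on the opposite side for Fzd6, Dkk2 and Sfrp2. The fit without it keeps mutants that correlate at 0.997 and may understate the spread between mutant samples. Markers of some cell types moved with this split, and those of others did not. Of 12 dermal papilla genes, 9 lay above the gauge in wild type skin and Fgf10, Nog and Sox2 did not. The mean over these 12 genes was 7.16 to 7.30 in wild type, 7.69 and 7.60 in mutant replicates 1 and 2 and 7.21 in mutant replicate 3. Without mutant replicate 3, 7 of the 12 were called higher and 1 lower. The mean over 11 measured dermal fibroblast genes was 11.23 to 11.30, 11.42 and 11.52, and 11.20 in the same order. Of these 11, 4 were called higher and 0 lower without mutant replicate 3. Melanocyte genes, 10 of 10 above the gauge, went the other way, with means of 9.59 to 9.72, 9.14 and 9.0, and 9.59, and 8 of them were called lower without mutant replicate 3. Inner root sheath genes, 8 measured and all above the gauge, had means of 12.82 to 12.91, 12.11 and 12.18, and 12.60, with 4 called lower without mutant replicate 3. These last lists moved in the direction of Fzd6 and Wnt10a in mutant replicates 1 and 2. In mutant replicate 3 the inner root sheath mean still lay below the wild type range, whereas Fzd6 lay above it. Skeletal muscle, adipocyte and immune cell genes had 5, 3 and 3 called higher without mutant replicate 3, and 1 immune cell gene was called lower. Skeletal muscle means were 10.12 to 11.30 in wild type, 11.86 and 11.36 in mutant replicates 1 and 2, and 10.86 in mutant replicate 3. The part of these cells in the values of the members was not tested.

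Other genes of the pathway, 71 measured of 76 listed, gave 1 call with all arrays (1.41%, against 2.08% of all probe sets). Without mutant replicate 3 there were 18 calls (25.4%), 12 higher and 6 lower, against 14.2% of all probe sets. These lists were written with earlier results of these data known, so their shares, here and below, are descriptions only. The call with all arrays was Tle4, a Groucho co-repressor that works with Tcf and Lef factors. Tle4 read 7.64, 7.68 and 7.72 in wild type and 7.20, 7.17 and 7.35 in mutant skin, with no overlap. It fell by 0.44 (SE 0.077, limma adjusted p = 0.0345). Only the fit without mutant replicate 3 kept the call among those that left out 1 array (-0.49 to -0.40). It was the only call among 25 measured intracellular components, whose median was 0.040 and turned to -0.022 without mutant replicate 3.

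Among 24 other extracellular and membrane genes none passed with all arrays (limma, 0 at an adjusted p and 7 at an unadjusted p under 0.05, or 29.2% against 14.4% of all probe sets), and their median was 0.13. The smallest p was that of Lgr4, a receptor for R-spondins, which potentiate Wnt signals. Lgr4 read 10.99, 11.03 and 11.10 in wild type and 11.61, 11.44 and 11.35 in mutant skin, with no overlap and a difference of 0.43 (limma adjusted p = 0.0598). Without mutant replicate 3, 6 of these genes were called higher and 1 lower (29.2%, against 14.2% of all probe sets). The 6 were Lgr4, Lgr5, Rspo1, Rspo2, Rspo3 and Frzb, and the lower gene was Notum, which the list of targets also holds. Lgr5, Frzb and the Rspo genes were named after their values were seen. The R-spondin genes Rspo1, Rspo2 and Rspo3 were at 0.66, 0.51 and 0.87 in that fit and at 0.35, 0.39 and 0.50 with all arrays. Rspo4, below the gauge in both groups, was at -0.32 (adjusted p = 0.213) and -0.11. Rspo3 read 8.70 and 8.80 in mutant replicates 1 and 2 and 7.66 in mutant replicate 3, against 7.73 to 8.05 in wild type. Frzb, a secreted Frizzled-related Wnt inhibitor without the family's Sfrp symbol, read 7.68 and 7.46 in mutant replicates 1 and 2 and 6.20 in mutant replicate 3, against 6.28, 6.94 and 6.20 in wild type. Its difference was 0.64 (limma adjusted p = 0.490), and without mutant replicate 3 it was 1.10 (adjusted p = 0.0138). Both genes split the mutants in the way described for Sfrp2 and Wif1, and the dermal papilla list moved with them too.

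Of 19 Tcf and Lef factors and common targets none passed with all arrays (limma, 0 at an adjusted p and 9 at an unadjusted p under 0.05, or 47.4% against 14.4% of all probe sets), with a median of 0.17. Of those 9, 7 were higher and 2 lower, and 14 of the 19 differences were above 0 (73.7%, against 57.6% of all probe sets). Because this list too was written with earlier results known, its share is no test of the pathway. The gene of this list with the smallest p was Notum, a feedback enzyme that removes the acyl group from Wnts. Notum read 6.73, 6.70 and 6.50 in wild type and 6.33, 6.24 and 5.99 in mutant skin, a difference of -0.46 (limma adjusted p = 0.103) with no overlap. Lef1, the factor that pairs with beta-catenin in hair shaft precursors, read 7.53, 7.96 and 7.92 in wild type and 7.08, 7.23 and 7.77 in mutant skin. Mutant replicate 3 lay inside the wild type range. The difference was -0.45 (adjusted p = 0.350), and without that array it was -0.66 (adjusted p = 0.0177). Without mutant replicate 3, 9 genes of this list passed, 5 higher and 4 lower (47.4%, against 14.2% of all probe sets). Some of them, Notum among them, were also counted in another list, so the counts by list are not separate. Planar cell polarity genes, which carry a branch without beta-catenin, gave 0 calls of 11 in both fits, against 2.08% and 14.2% of all probe sets. At an unadjusted p under 0.05 with all arrays there were 0, against 14.4%. The Frizzled genes, Fzd6 among them, were counted with the receptors and not in this list. The list median was -0.017, and the smallest p was that of Prickle1 (-0.21, limma adjusted p = 0.459).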

How the data were processed

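Total skin RNA was amplified once from an oligo(dT) primer, labelled with biotin and hybridised, per the labels' protocols, so probes read mainly the 3′ ends. The values that the authors deposited are log2 expression from RMA, per the submitters' processing notes, which name no version. RMA quantile normalises arrays and compresses differences near background. The array median was 7.405 on every array. Counts and detection calls were not used, and precision rests on 3 arrays a group.

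From 16395 probe sets, 64 controls were left out. The array annotation named 15644 of the remaining 16331, none with several symbols, and 687 stay unnamed here. All 43 members matched Entrez numbers in the RefSeq table of GRCm38.p6, with 0 changed symbols. RefSeq promoters were found for 29 members.

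Groups came from the labels. limma 3.58.1 in R 4.3.3 (lmFit, eBayes, two-sided, no filter or block) was fitted to all probe sets with Benjamini-Hochberg adjustment at 0.05. SE and 95% intervals are limma's moderated values, the intervals without adjustment. The fit was tested on simulated data with independent noise of equal size in both groups. No simulated array stood apart as mutant replicate 3 did, so that case was not tested. Same-numbered samples were checked for pairing: the correlations of their deviations from the group means were 0.04, -0.12 and -0.09, so the numbers were not treated as pairs.

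Members, lists and naming rule were chosen with earlier results of these data known. Every member is named. Array values are given for called members, for those without overlap at a difference of at least 0.3, for Axin2, Ctnnb1, Lrp5, Lrp6, Porcn, Wnt10b, Wnt5a, Wnt3 and Wnt3a, and for the smallest p of each class. From each other pathway list, called genes or the smallest p are named, and Lef1. Array values of other members, such as Wnt11, Nkd1, Fzd6, Sfrp1, Sfrp2 and Wif1, were added after their values were seen.

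Alternatives were repeated quantile normalisation, centring, removal of probe sets below the gauge, a robust prior with an intensity trend, the replicate number as a block, weights per array, unmoderated variances and each array left out in turn. Figures used Python 3.11.15 and matplotlib 3.10.9.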

Additional observations from a re-analysis of the deposited data

How the results depend on the processing

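The call count over all probe sets (339) was 1880 with array weights, 197 with the replicate block, 84 without variance moderation, and 151 to 2316 when 1 array was left out, the highest without mutant replicate 3. Among the members it was 1 without low probe sets (Wnt3a), 8 with array weights (2 shared), 1 with the replicate block (Wnt3a), 0 without moderation, and 0 to 7 with 1 array left out. It stayed at 2 with repeated quantile normalisation, centring and the trend with a robust prior. Among the other pathway genes (1) it was 2 with the trend, 16 with array weights, 0 with the replicate block, 0 without moderation, and 0 to 18 with 1 array left out. The ligand median (0.046) was 0.0125 with array weights and 0.0055 to 0.0358 with 1 array left out, and the inhibitor median (0.011) was 0.112 and -0.000833 to 0.143. The receptor median (0.059) was -0.0143 without mutant replicate 3. With the replicate block Wnt3a was at adjusted p = 0.0456 and Wnt3 at 0.0768. RMA compression and 3 arrays a group limit small differences near background.

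No called member changed direction. Uncalled members whose sign changed with 1 array left out are given with their range. They were Axin2 (-0.0883 to 0.142), Wnt1 (-0.0207 to 0.0218), Wnt2b (-0.034 to 0.193), Wnt7b (-0.0363 to 0.123), Wnt8a (-0.0563 to 0.0202), Wnt8b (-0.125 to 0.00967), Wnt16 (-0.0357 to 0.193), Fzd4 (-0.164 to 0.192), Fzd7 (-0.0143 to 0.173), Fzd9 (-0.0457 to 0.148), Lrp5 (-0.154 to 0.141), Lrp6 (-0.0568 to 0.0892), Dkk2 (-0.057 to 0.143), Sfrp1 (-0.165 to 0.277), Sfrp2 (-0.389 to 0.457), Sfrp4 (-0.219 to 0.108) and Sfrp5 (-0.0893 to 0.0687). With array weights, which gave mutant replicate 3 a weight of 0.234 against 1.23 to 1.44 for the others, the sign changed for Axin2 (-0.056), Wnt7b (-0.00799), Wnt8a (0.0109), Fzd9 (-0.0181), Lrp5 (-0.0844), Lrp6 (-0.0363), Sfrp1 (-0.0998) and Sfrp2 (0.338). These fits describe dependence on single arrays, and the cause of a sign change was not tested.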

Other observations

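Of the 19 Wnt genes, 8 lie next to another Wnt gene among the protein-coding genes of the RefSeq table, in 4 pairs, and the members of a pair differed in their values. Wnt6 (0.43) lies beside Wnt10a (-0.34) on chromosome 1, Wnt3a (-0.56) beside Wnt9a (0.017) and Wnt3 (-0.48) beside Wnt9b (0.092) on chromosome 11, and Wnt10b (-0.27) beside Wnt1 (0.0057) on chromosome 15. Each pair thus held 1 of the 4 Wnt genes whose mutant values all lay below the wild type values, beside a neighbour whose values did not. Lower values without overlap were found in 4 of 19 ligands, against 7.82% of all probe sets. Wnt3, Wnt9b and Wnt1 were below the background gauge in both groups and Wnt6 in wild type skin, and Wnt9a was barely above it. Wnt3 was called lower at such a level, and the difference within a pair was not tested.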
